A study of Mus musculus with 30 samples.

Results

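Wild type mouse embryonic fibroblasts (MEFs) exposed for 45 min to anisomycin at 25 ng/ml were represented by 2 of the 30 arrays of the series, the replicates 1 and 2 without the p38 inhibitor SB203580. The MEFs were immortalised lines, wild type or lacking p38α (p38α-/-), and the strain of the mice is not given in the sources used here. Each array was a 2-colour Agilent whole genome array on which treated cells were labelled with Cy5 and hybridised against a Cy3 pool made from 2 untreated cultures of wild type MEFs. The groups set beside them were wild type MEFs given TNFα (100 ng/ml, 45 min), NaCl (100 mM for 45 min, 2 h or 8 h) or SB203580, the inhibitor either alone or before each of these stresses or anisomycin, and p38α-/- MEFs left untreated or given anisomycin, TNFα or NaCl (2 h). The same pool was the Cy3 sample on every array of the series and dyes were not swapped, so that a difference between the dyes and a difference between treated and untreated cells cannot be told apart within 1 group. According to the study's methods the replicates came from independent experiments. In wild type MEFs the replicate number was also the scan day, with all arrays numbered 1 scanned on 1 day and all arrays numbered 2 on another. For SB203580 the protocol gives 10 μM for 30 min before the stress whereas the sample titles give 10 mM and 2 h.

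Anisomycin is an antibiotic that binds the large ribosomal subunit and blocks peptide bond formation. At low doses it leaves part of protein synthesis running and the stalled ribosomes activate the MAP3 kinase ZAK, which switches on the stress kinases p38 and JNK, a reaction known as the ribotoxic stress response. These kinases phosphorylate transcription factors such as c-Jun, ATF2 and the ternary complex factors, which are already present in the cell and turn on immediate early genes within minutes, without new protein. The transcripts of immediate early genes are short-lived through AU-rich elements in their 3' ends, and inhibition of translation is known to prolong their life, which is called superinduction. In fibroblasts the response typically includes the AP-1 and Egr transcription factors, phosphatases that switch MAP kinases off again, and anti-proliferative genes.

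The array carried 21689 named genes, of which 15720 had a usable spot on both anisomycin arrays and were tested. A gene was called higher or lower when limma gave an adjusted p under 0.05 and the ratio of treated cells to pool was at least 2-fold in the same direction on each array. By this rule 72 genes were higher with anisomycin, 0.458% of the genes tested, and 69 genes were lower, 0.439%. At 2.5-fold on both arrays 30 genes (0.191%) were higher and 21 (0.134%) were lower. The adjusted p alone was passed by 862 higher and 936 lower genes, so most genes that passed it had changes below 2-fold on at least 1 array. The tests measured the spread between treated cultures and left out that of the control, since the pool was a single sample. As RNA came from whole cultures, a change in every cell and a larger change in some of the cells cannot be told apart.

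The 2 arrays differed in their overall spread. Across the 15720 genes the log2 ratios of the 2 arrays had a Pearson correlation of 0.50 and a Spearman correlation of 0.52, values across genes, which are not independent replicates. The standard deviation of the log2 ratios over probes was 0.583 on array 1 and 0.385 on array 2. At least 2-fold over the pool were 571 genes on array 1 and 130 on array 2, and 344 and 124 genes were at least 2-fold under it. Among the called genes the change was larger on array 1 for 61 of the 72 higher and 53 of the 69 lower genes. With array 1 left out the calls numbered 52 higher and 33 lower, and with array 2 left out 209 higher and 203 lower, so that the count depended strongly on which array was present. A further 5969 named genes could not be tested because the scanner software had marked their spots as outliers on at least 1 array, which were 22.9% of the spots on array 1 and 29.8% on array 2.

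**Figure D1:**
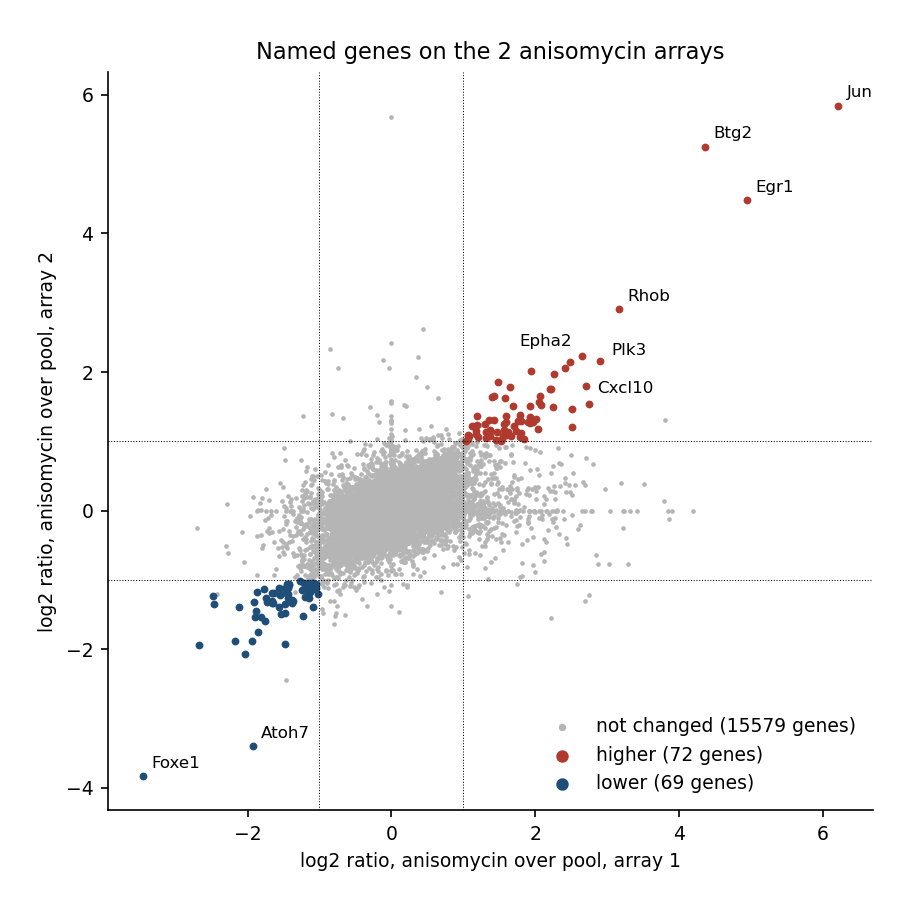
Log2 ratio of anisomycin-treated wild type MEFs over the untreated pool on array 1 (x axis) and array 2 (y axis) for the 15720 named genes tested, with the 72 higher genes in red, the 69 lower genes in blue and dotted lines at 2-fold. Jun, Btg2 and Egr1 lay apart from all others, above 4 on both axes, and the grey cloud was wider along the axis of array 1.

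The 3 highest genes encode a pair of immediate early transcription factors and an anti-proliferative protein. Jun, which encodes the AP-1 subunit c-Jun, had log2 ratios of 6.21 and 5.85 on the 2 arrays, a 65.3-fold mean change (6.03 ± 0.22, mean ± SE, adjusted p = 6.7e-12 from limma). Btg2, a p53-inducible anti-proliferative gene whose protein recruits the mRNA deadenylase, reached 4.35 and 5.26 (adjusted p = 5.5e-09, limma). Egr1, a zinc finger factor driven by serum response factor, stood at 4.94 and 4.48 (adjusted p = 1.8e-08, limma). Among the genes tested these were the only ones above 4 on both arrays. The value of Btg2 on array 1 averaged a pair of probes at 5.38 and 3.33 whereas that on array 2 came from the stronger probe alone, so the step between its arrays does not measure a difference between cultures.

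Next in size were genes of signalling and cell shape. Rhob, the stress-inducible small GTPase, had log2 ratios of 3.17 and 2.91 (adjusted p = 3.5e-07, limma). Plk3, a polo-like kinase of the stress response, had 2.91 and 2.16 (adjusted p = 5.8e-05, limma), and the ephrin receptor gene Epha2 had 2.64 and 2.23 (adjusted p = 3.6e-05, limma). Dusp8, which encodes a phosphatase that inactivates JNK and p38, had 2.48 and 2.15 (adjusted p = 2.3e-06, limma). For each of these 4 genes the lower array was more than 4-fold over the pool. Cxcl10, given with the chemokines, came next, and then the uncharacterised 3110018C07Rik at 2.41 and 2.06. The small Maf gene Maff had 2.26 and 1.97, Ier5l, a relative of the immediate early gene Ier5, had 2.23 and 1.76, and Hist1h1c (H1f2), a linker histone, had 1.94 and 2.02. Chac1 (1810008K03Rik on the array), a glutathione-degrading enzyme gene that ATF4 controls, had 2.52 and 1.46 with an adjusted p of 0.021 from limma.

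Several of these genes carry in their promoters the cAMP response element (CRE), the palindrome TGACGTCA that c-Jun with ATF2 and CREB bind. Windows from 250 bases before to 50 bases after the RefSeq gene start (GRCm38.p6) were found for 51 of the 72 higher and 46 of the 69 lower genes. A gene was counted when any of its windows held the motif. The CRE was present for 6 of the 51 higher genes (11.8%), namely Errfi1, Btg2, Dusp8, Epha2, Maff and Topors. It was present for 0 of the 46 lower genes and for 2.03% of all 27025 genes of the reference. The reference was not limited to genes tested on the arrays. Shown are promoter stretches of the 4 strongest of these genes, 5' to 3' on the strand of the gene, with each CRE in capitals.
Btg2, chr1:134079232-134079331, minus strand: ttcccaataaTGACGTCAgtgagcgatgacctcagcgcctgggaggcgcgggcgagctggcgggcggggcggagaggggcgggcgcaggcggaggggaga
Epha2, chr4:141301121-141301220, plus strand: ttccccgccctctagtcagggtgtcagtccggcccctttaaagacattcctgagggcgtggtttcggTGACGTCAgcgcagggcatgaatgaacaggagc
Dusp8, chr7:142095302-142095401, minus strand: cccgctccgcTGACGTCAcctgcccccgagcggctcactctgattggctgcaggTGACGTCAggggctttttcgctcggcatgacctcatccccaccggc
Maff, chr15:79347420-79347519, plus strand: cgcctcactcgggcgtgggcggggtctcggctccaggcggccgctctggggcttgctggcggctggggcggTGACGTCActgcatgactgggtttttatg
The CRE began 166 bases before the start in Btg2, 33 in Epha2 and 29 in Maff, and Dusp8 had a pair, 107 and 63 bases before it. The AP-1 motif, written TGACTCA or TGAGTCA, was present for 5 of the higher genes (9.8%), 2 of the lower genes (4.35%) and 5.95% of all. For the CArG box the shares were 1.96%, 2.17% and 1.81%, and for the kappaB consensus 7.84%, 10.9% and 9.55%. Both strands were searched, and the AP-1 letters are not contained in the CRE. Jun, Rhob, Plk3 and Ier5l had no CRE or AP-1 match in these windows.

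**Figure D2:**
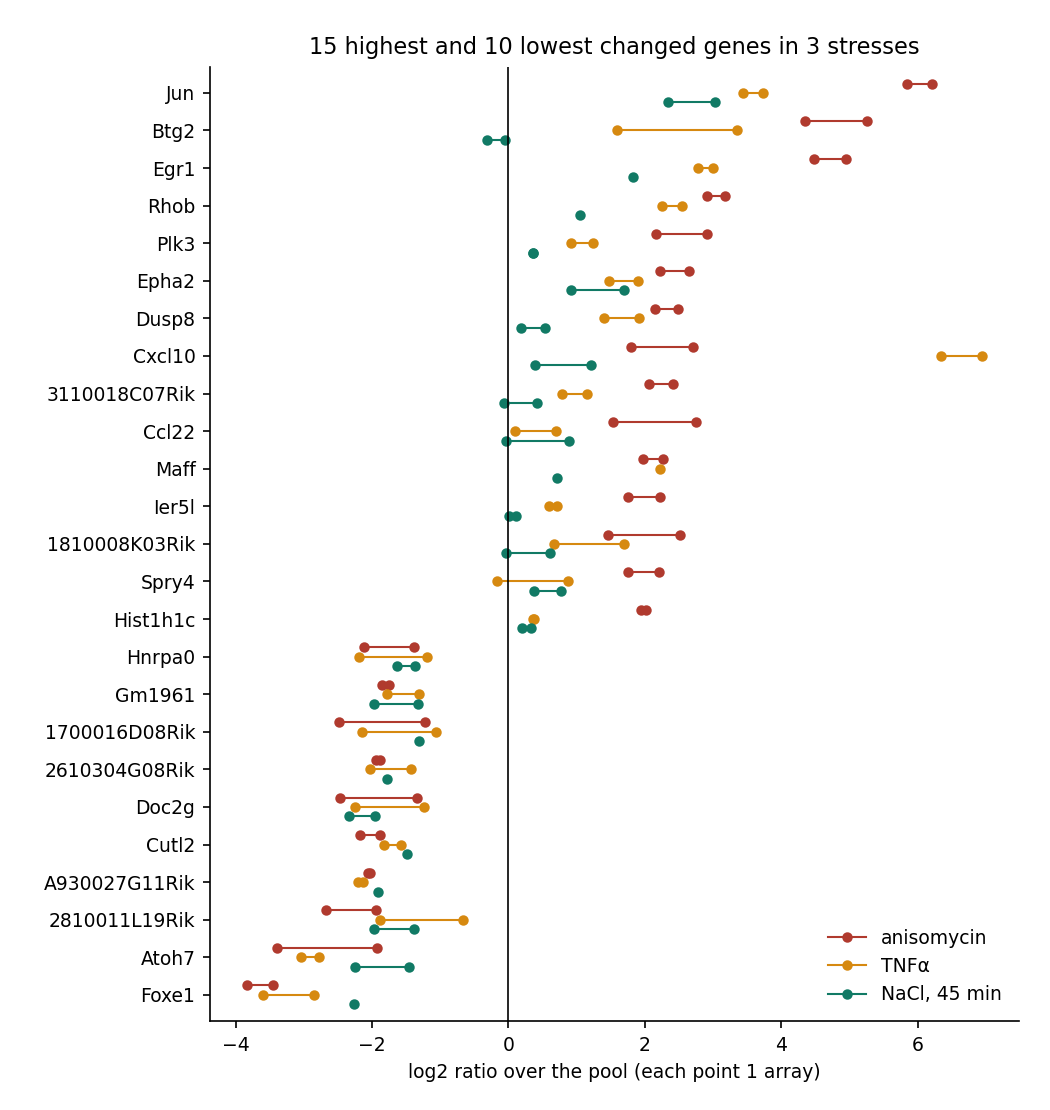
Log2 ratio over the pool of the 15 genes with the highest and the 10 with the lowest mean among those changed with anisomycin, each point 1 array, for wild type MEFs treated for 45 min with anisomycin (red), TNFα (orange) or NaCl (green), with missing points where the spot was marked as an outlier. Jun, Btg2 and Plk3 had anisomycin points clear of the other stresses, Cxcl10 was above 6 with TNFα, and the 10 lowest genes had points of all 3 stresses on the same side of 0.

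Among AP-1 and CREB-type factors 7 of 15 genes on the array were tested and 3 were higher, Jun, Maff and Mafk (1.53 and 1.00). The median of the 7 tested was 0.30 on the log2 scale, against 0 over all genes tested. Of all genes tested 0.458% were higher and 0.439% lower, the shares to set beside the counts of every list. The lists were chosen with earlier results of these data known. Crem (0.19 and 0.11), a CREB family member, and Creb5 (0.22 and 0.38) were not called. Of the Egr, Nr4a and other serum response factors 9 of 16 were tested, with a median of 1.17, and 4 were higher. Besides Egr1 these were Ier5 (2.06 and 1.66), Axud1 (now Csrnp1, 1.65 and 1.78) and Egr3 (1.13 and 1.22). The activity-regulated gene Arc and the orphan receptor genes Nr4a2 and Nr4a3 lay between -0.58 and 0.47 and were not called.

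Klf, Myc and E-box factors gave 3 higher genes of 13 tested, with a median of 0.81. Klf4 had 2.51 and 1.20, Klf9 (Bteb1) 1.92 and 1.36, and Klf2 1.62 and 1.14, all zinc finger factors that restrain proliferation in many cells. Myc, the growth-promoting factor, had 2.71 on array 1 and 0.76 on array 2 (adjusted p = 0.045, limma), and this gene mean did not reach 2-fold on both. A pair of its probes did, at 2.69 and 1.23 and at 2.73 and 1.41. The mean on array 2 also took in a probe at -0.37, which was marked as an outlier on array 1. The step between the Myc arrays therefore does not measure a difference between cultures. Id, Smad and TGF-beta feedback genes gave 4 higher genes of 14 tested, with a median of 0.13. These were Id1 (1.43 and 1.66), Id2 (1.79 and 1.39) and Id4 (1.79 and 1.07), which encode inhibitors of helix-loop-helix factors, and Smad7 (1.57 and 1.26), which blocks TGF-beta receptors. Smad6, Ski and the Smurf genes of the same list lay between -0.46 and 0.16 and were not called.

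The feedback side of the response was also represented. Among MAP kinase phosphatases and ERK feedback genes 4 of 11 tested genes were higher, with a median of 0.80. In addition to Dusp8 these were Spry4 (2.21 and 1.76), Errfi1 (1300002F13Rik, 1.93 and 1.51), an inhibitor of the EGF receptor, and the JNK phosphatase gene Dusp16 (1.80 and 1.29). Dusp10 (1.68 and 0.94, adjusted p = 0.0045, limma) and Dusp4 (0.89 and 0.72) missed the 2-fold limit on at least 1 array. Spry4 rested on 1 of its 2 probes, since the other was marked as an outlier on both arrays and read -1.22 and -1.28. The Btg, Tob and AU-rich element decay factors gave 3 higher genes of 9 tested, with a median of 0.32: Btg2, Zfp36l1 (1.40 and 1.64), which directs AU-rich mRNAs to decay, and Btg1 (1.32 and 1.05).

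Growth arrest and p53 target genes included 3 higher of 12 tested, with a median of 0.30. Rhob and Plk3 were joined by Pmaip1 (1.70 and 1.50), the gene of the pro-apoptotic BH3-only protein Noxa. Cdkn1a, the p21 gene and a classical p53 target, had 0.24 on each array and was not called, and Gadd45b had 1.00 and 0.92 (adjusted p = 0.0015, limma), just short of 2-fold on both arrays. The integrated stress response list gave 2 of 8, Chac1 and Trib1 (1.81 and 1.12), with a median of 0.34, while Trib3 (0.40 and -0.10), Xbp1 (0.40 and 0.04) and Hspa5 (0.63 and 0.25) were not called. None of the 7 heat shock genes tested was called, and their means ranged from -0.16 to 0.72.

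Of 22 chemokines and cytokines tested 3 were higher, beside 0.458% of all genes tested, with a median of 0.11. Cxcl10, an interferon-inducible chemokine, had 2.71 and 1.79 (adjusted p = 0.0017, limma), and Ccl20 had 1.76 and 1.29. Ccl22 had 2.75 and 1.54, yet its pool signal was not well above background on either array and its Cy5 signal on 1 array only, which leaves a change of at least 1.21-fold. Il6, Tnf, Il1b and Ifnb1 had ratios between -0.60 and -0.07 and were not called. Of 13 NF-kappaB subunits and feedback genes 1 was higher, Nfkbiz (1.43 and 1.30), which encodes an atypical IkappaB protein, and the median was 0.17. The NF-kappaB feedback gene Tnfaip3 had 1.29 and 0.81 and did not reach 2-fold on array 2. Cxcl10 carries matches to both the kappaB consensus and the AP-1 motif, shown in capitals in 1 stretch of its promoter window, where a pair of overlapping kappaB matches forms the longer run.
Cxcl10, chr5:92348947-92349058, minus strand: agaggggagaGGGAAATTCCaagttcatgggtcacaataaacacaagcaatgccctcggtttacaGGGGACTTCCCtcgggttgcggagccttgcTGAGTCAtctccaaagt

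Secreted signals, receptors and matrix genes had medians near 0. Epha2 and the vasoconstrictor peptide gene Edn1 (1.30 and 1.25) were the higher genes among 14 EGF and Eph receptors, ligands and other secreted signals, which had a median of 0.01. Areg, Ereg, Tgfa and Btc, ligands of the EGF receptor, lay between -0.28 and 0.90 on single arrays. The 12 matrix, adhesion and contractile genes tested had a median of -0.07. Among them Ptgs2, the inducible cyclooxygenase gene, had 2.32 and 0.91 (adjusted p = 0.0091, limma) and did not reach 2-fold on array 2, and Acta2, Timp1 and Plau lay between -0.19 and 0.03. None of 11 ubiquitin and histone-modifier genes with short-lived transcripts was called, with means from -0.42 to 0.71.

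The remaining higher genes, outside the lists, had mean ratios of 2.03-fold to 3.50-fold, except that 2810405F15Rik (2.25 and 1.49) was not well above background in either dye and has no fold change. They included the salt-inducible kinase gene Sik1 (Snf1lk, 1.47 and 1.13), the basic leucine zipper repressor gene Nfil3 (1.73 and 1.15) and Tiparp (1.36 and 1.30), a target of the aryl hydrocarbon receptor. Metal-binding Mt2 had 1.84 and 1.03, the hyaluronan-binding Tnfaip6 had 1.70 and 1.22 and the oxidised lipoprotein receptor gene Olr1 had 1.54 and 1.03. DNA topoisomerase gene Top1 was the smallest called, at 1.04 and 1.00.

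Few genes of the stress kinases and of the translation machinery were called. Over all genes tested 0.897% were called in either direction, so few calls are not particular to these lists. None of 18 ribotoxic stress, p38 and JNK pathway kinases was called, and their mean log2 ratios ran from -0.72 to 0.57, with Mapk14, the p38α gene, at 0.32 and 0.05. The MAP3 kinase gene of the JNK pathway Map3k1 (0.52 and 0.62) and the p38 target kinase gene Mapkapk2 (-0.39 and -0.40) passed the adjusted p at less than 2-fold, as did Mknk1 (0.52 and 0.20). The gene of ZAK itself, Map3k20 (B230120H23Rik), had -1.13 and -0.30 (adjusted p = 0.033, limma), past 2-fold on array 1 only. This value rested on 1 probe, and the other, marked as an outlier on both arrays, read 0.16 and -0.11. None of 55 cytosolic ribosomal protein genes tested was called, with means from -0.76 to 0.84. Of 32 translation initiation and elongation factor genes 1 was lower, Eif5a (-1.47 and -1.48), the factor that carries hypusine and relieves stalled ribosomes. Its other probe, marked as an outlier on both arrays, read -0.78 and -0.50. Eif5a also had -1.74 and -1.14 in unstressed cells given SB203580 alone, from which anisomycin differed by -0.04 and was not distinguished. Histone genes went both ways, with Hist1h1c, Hist1h2ae (2.04 and 1.18) and H3f3b (1.45 and 1.02) higher and Hist1h1b (-1.43 and -1.26) lower among 30 tested. Hist1h1b had -1.36 and -1.37 with SB203580 alone, and none of these histone genes was called different from SB203580 alone in the contrast given further on. Histone genes are near-identical copies, so their probes may share targets.

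**Figure D3:**
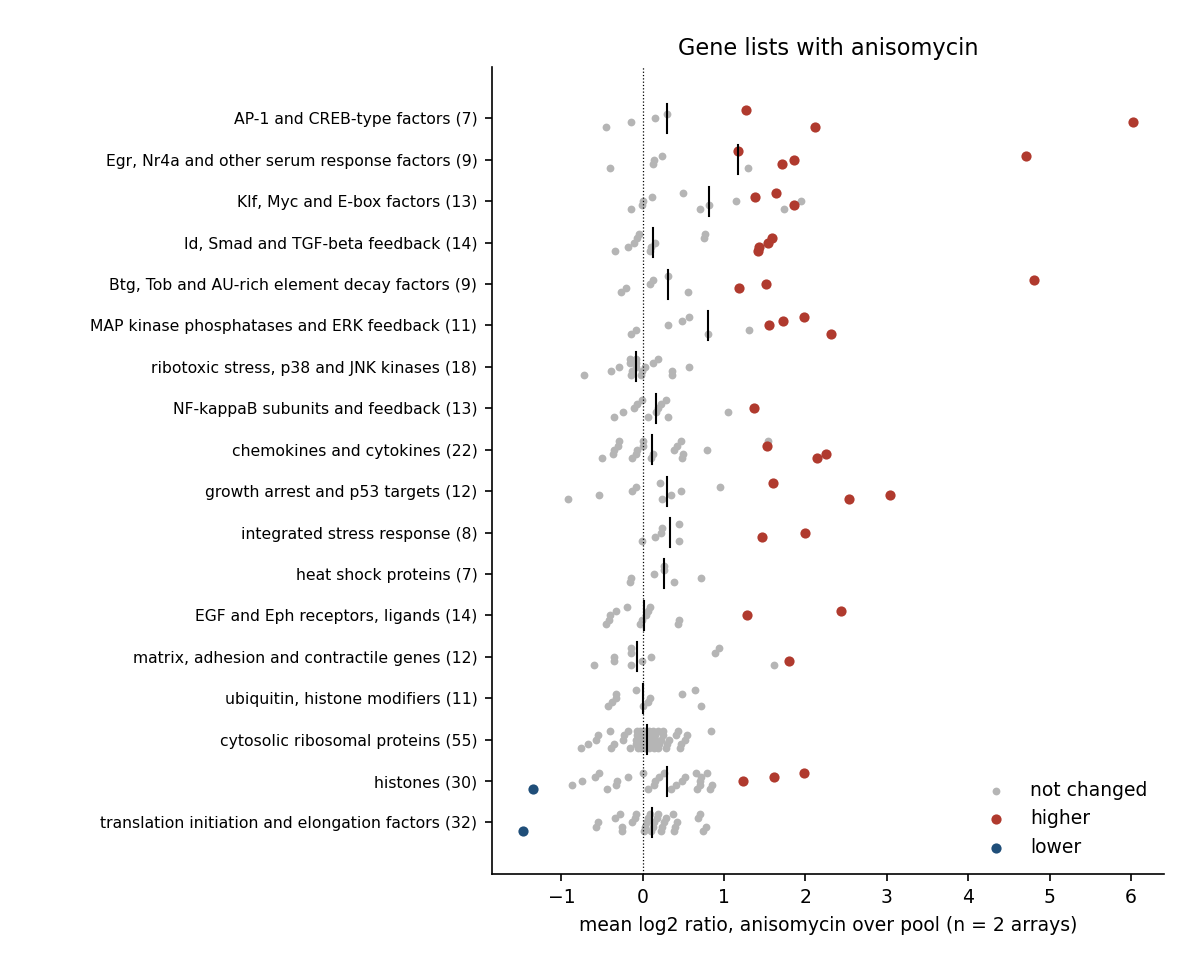
Mean log2 ratio of anisomycin over pool (x axis, n = 2 arrays) for every tested member of 18 gene lists, 1 row a list with the number tested in brackets, red for higher, blue for lower and grey for not changed genes, and a black bar at the median of the list. Lists without a higher gene were those of the stress kinases, heat shock proteins, ubiquitin and histone modifiers, ribosomal proteins and translation factors, the other lists had from 1 to 4, and the medians of all lists but that of the Egr and Nr4a genes were below 1.

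Many of the best-known immediate early genes were not among the tested ones. Of 268 different genes on the lists of chosen symbols 89 could not be tested, as their spots were marked as outliers on at least 1 array. With the marked spots kept, 16 of the 89 (18%) were at least 2-fold over the pool on both arrays and 0 were 2-fold under it, against 0.369% and 1.22% of all 5969 untested named genes. The 5969 held 22 genes 2-fold over the pool, these 16 among them. Since the lists were chosen with earlier results of these data known, the choice favoured the larger share. Dusp1, the phosphatase of p38 and JNK, then read 5.06 and 4.66 and the AP-1 gene Fos 4.13 and 4.41. Zfp36, which encodes the mRNA decay factor tristetraprolin, read 4.08 and 3.72, and the ATF family gene Atf3 3.75 and 3.37. The matricellular genes Cyr61 (3.47 and 3.39) and Ctgf (3.08 and 2.89) and Tob1 (2.19 and 1.83), of the Btg family, read lower. Each of these genes carries the software's outlier mark on at least 1 of the 2 arrays and has no test here. Ier2 was tested at 0.37 and 2.21 on 1 probe, while its marked probe read 4.25 and 3.83.

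Probes of the same gene disagreed for part of the higher genes. Of the 72 higher genes 24 had at least 2 probes, marked spots included, and in 13 of them every probe lay above 0 on both arrays. In 11 a probe lay under 0 on both arrays, namely Axud1, Dusp16, Egr3, Klf2, Klf9, Rtn3, Spry4, Topors, AI790326, 1500001A10Rik and D930046H04Rik. Rtn3 (1.49 and 1.86) rested on 1 of 4 probes, and the marked ones read from -1.24 to 0.18. Of the 69 lower genes 22 had at least 2 probes, and none had a probe on the opposite side on both arrays.

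The lower genes were spread over unrelated functions, and of the lists above they held Eif5a and Hist1h1b. The most reduced was Foxe1, a forkhead factor of thyroid development, at -3.46 and -3.84 (adjusted p = 2.3e-06, limma). Its Cy5 signal was not well above background on either array, so that the change is at least 2.27-fold. Atoh7, a retinal helix-loop-helix factor, had -1.93 and -3.40 and the same limit, at least 1.64-fold. Then came 2810011L19Rik (-2.68 and -1.94), A930027G11Rik (-2.04 and -2.07), the homeobox gene Cux2 (Cutl2, -2.18 and -1.88) and the calcium sensor relative Doc2g (-2.47 and -1.35). The Doc2g probe used on both arrays read -2.47 and -2.26. A probe at -0.43, marked as an outlier on array 1, entered the mean of array 2 only, so this step does not measure a difference between cultures. The 10 lowest were completed by Rprd1b (2610304G08Rik, -1.94 and -1.88), which binds the tail of RNA polymerase II, 1700016D08Rik (-2.48 and -1.23), the vomeronasal receptor gene Vmn2r43 (Gm1961, -1.86 and -1.75) and Hnrpa0 (-2.12 and -1.39), which encodes an RNA-binding protein. Clone names without a described product were borne by 28 of the 69 lower and 19 of the 72 higher genes.

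The lower genes were also below the pool in fibroblasts that had received no stress. In unstressed wild type MEFs given SB203580 alone 57 of the 69 genes were measured on both arrays, and all 57 were below 0 on both, 40 of them at least 2-fold. Their median log2 ratio was -1.39 with SB203580 alone and that of the lower genes with anisomycin was -1.34. In the same unstressed cells 0.542% of all genes measured were 2-fold under the pool on both arrays. Foxe1 had -2.52 and -2.79, Atoh7 -1.75 and -2.50, Cux2 -2.29 and -2.01 and Doc2g -2.33 and -2.20 without stress, which overlapped the anisomycin values for Atoh7, Cux2 and Doc2g but not for Foxe1. For Doc2g the range with anisomycin depended on the probes averaged on each array. Untreated p38α-/- MEFs had a median of -1.09 over the 58 lower genes measured. Every other group had a median from -1.35 to -0.59 for these genes. All groups share the pool.

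A direct contrast of anisomycin with SB203580 alone, in which the pool cancels, was added after the data were seen. None of the 57 lower genes differed in it, at an adjusted p under 0.05 from limma, and their median difference was 0.05. Over the 14035 genes tested in this contrast 23 were higher with anisomycin and 0 lower, with 1125 genes at an unadjusted p under 0.05. The SB203580 arrays are not untreated controls, since the cells carry the inhibitor, and untreated wild type cells were not hybridised in Cy5.

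Higher genes were tested in the same contrast, whose anisomycin arrays are those that had chosen them, so that differences above 0 were favoured by the choice. Of the 72 genes 69 were tested and 21 were higher with anisomycin than with SB203580 alone, with a median difference of 1.01 against -0.02 over all genes tested. Btg2 (difference 4.94), Jun (4.19), Egr1 (3.79), Plk3 (2.82), Spry4 (2.71), Epha2 (2.41), Dusp8 (2.32) and Rhob (1.98) passed, as did Id1, Trib1, Chka, Axud1, Ier5, Ier5l, Klf9, Smad7, Nfil3 and Zfp36l1. Most of the 69 did not pass. Among these were Chac1 (difference 1.48), Dusp16 (1.42), Klf4 (1.42), Ccl20 (1.04), Cxcl10 (0.93) and Egr3 (0.89). Hist1h1c (0.81), Id4 (0.79), Pmaip1 (0.64), Id2 (0.63) and Klf2 (0.62) did not pass either. Part of the response over the pool was also read with SB203580 alone, in unstressed cells that carry the inhibitor. Jun had 2.05 and 1.64 with SB203580 alone, Rhob 1.32 and 0.80 and Cxcl10 1.82 and 0.82. Btg2 (-0.18 and -0.09), Plk3 (-0.38 and -0.20) and Epha2 (0.17 and -0.11) were near or below 0. Untreated p38α-/- MEFs had 0.60 and 0.22 for Jun, 1.74 and 1.15 for Rhob and 2.35 and 0.20 for Cxcl10. In them Btg2 had -0.18 and 0.17, Plk3 0.70 and -0.43 and Epha2 1.81 and 0.48. Whether the inhibitor itself changed Jun was not tested. Arrdc3, an arrestin family gene at 2.05 and 1.57 with anisomycin, differed by -0.05 and was not distinguished from the unstressed cells given SB203580.

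**Figure D4:**
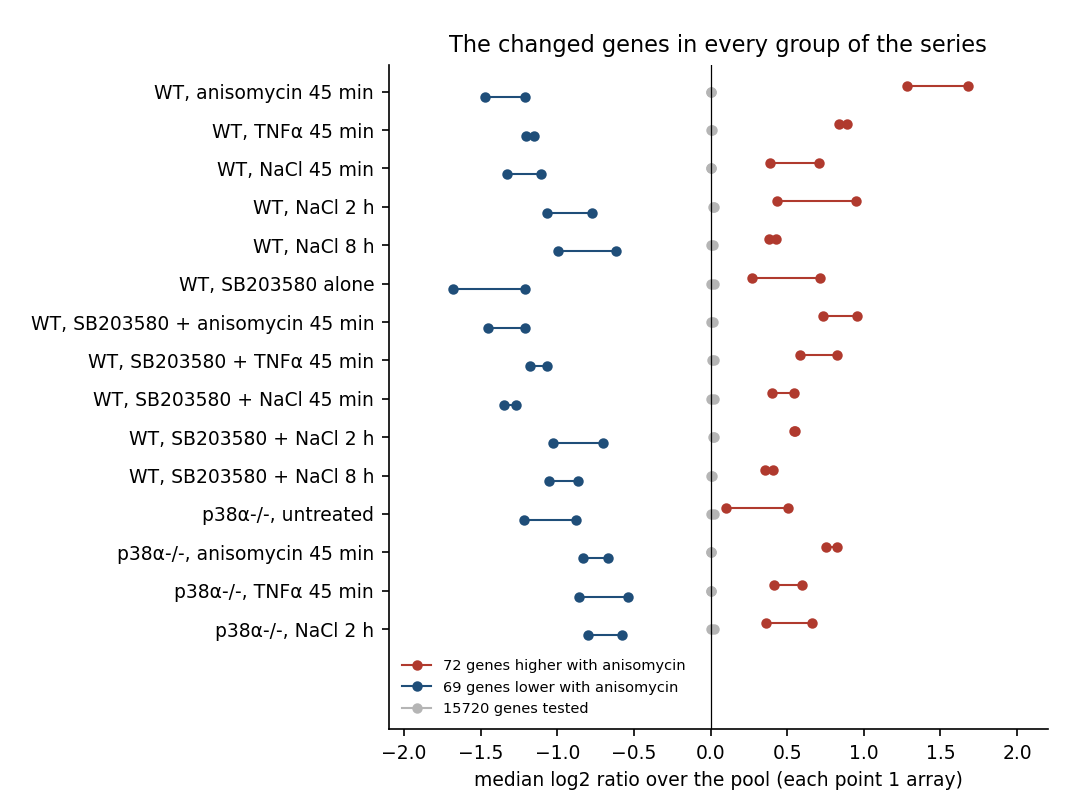
Median log2 ratio over the pool of the 72 genes higher with anisomycin (red), the 69 genes lower with it (blue) and all 15720 genes tested (grey), in each of the 15 groups. Each point is 1 array and the median over the genes measured on that array. The red points were furthest right with anisomycin, where the genes were chosen, and the blue points of SB203580 alone and of SB203580 with anisomycin were as far left as those of anisomycin.

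Compared with TNFα, the cytokine that signals through NF-kappaB, anisomycin gave higher Jun and Btg2 and lower Ccl20, Cxcl10 and Tnfaip3. In this contrast of 14192 genes the pool cancels, and 11 genes (0.0775%) were higher with anisomycin and 10 (0.0705%) lower. Jun had 3.43 and 3.74 with TNFα, below both anisomycin arrays, a difference of 2.44 ± 0.31 (SE, adjusted p = 0.00066, limma). Btg2 had 1.58 and 3.35 with TNFα, a difference of 2.34 ± 0.38 (adjusted p = 0.0068, limma). As marked spots were left out, the probes averaged for Btg2 and other genes with more than 1 probe can differ between groups. How far this enters the differences was not tested, and the same holds for every comparison of groups given here. Chka, the choline kinase gene, differed by 1.59, Srrm4 (1500001A10Rik) by 1.85, Ier5l by 1.34 and Arl4d (Arfl4), a small GTPase gene that was 0.85 and 0.91 with anisomycin and -0.59 and -0.61 with TNFα, by 1.48. Among the 11 were also 5830468K08Rik, not well above background in either dye on the anisomycin arrays, and C130098D09, not well above background in Cy5, and no size is given for them.

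On the other side Ccl20 had 7.18 and 6.96 with TNFα against 1.76 and 1.29 with anisomycin, a difference of -5.54 ± 0.55 (adjusted p = 6.15e-05, limma). Cxcl10 had 6.94 and 6.34 with TNFα and differed by -4.39, and Tnfaip3, which encodes the deubiquitinase A20, had 5.69 and 4.98 and differed by -4.29. The neutrophil chemokine gene Cxcl5 had 4.44 and 4.47 with TNFα and was not well above background in either dye with anisomycin, where the software gave a ratio of 0. Map3k8, the MAP3 kinase Tpl2, differed by -2.20 and Ch25h, cholesterol 25-hydroxylase, by -1.93, and both lay between -0.43 and 0.10 with anisomycin. Of the list of chemokines and cytokines 19 were tested in this contrast, 3 were lower with anisomycin and 0 higher, and Ccl22 (0.70 and 0.10 with TNFα) did not pass. A probe named for the olfactory receptor gene Olfr1015 differed by -4.27. Of the 72 genes higher with anisomycin 67 were tested against TNFα, of which 7 were higher and 3 lower, and 21 of these 67 were at least 2-fold over the pool with TNFα as well, as were 0.557% of all genes measured on both TNFα arrays. Of the lower genes 62 were tested and 0 differed.

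Against osmotic stress by NaCl at the same time point almost all differences ran towards anisomycin. Of 12447 genes tested 23 (0.185%) were higher with anisomycin and 2 (0.0161%) lower. Of the 23 genes 12 were also called higher over the pool with anisomycin. Others had NaCl values under the pool, such as B230117O15Rik (0.04 and 0.20 with anisomycin, -1.09 and -1.37 with NaCl) and 4632427E13Rik (0.56 and 0.66, then -0.62 and -0.72). Btg2 had -0.05 and -0.32 with NaCl and gave the largest difference, 4.99 ± 0.38 (adjusted p = 1.8e-06, limma). Jun had 3.02 and 2.35 with NaCl, a difference of 3.34 ± 0.31 (adjusted p = 2.0e-05, limma). Plk3 was 0.36 on each NaCl array and differed by 2.18, 3110018C07Rik by 2.06, Dusp8 by 1.96, Chka by 1.95 and Ier5l by 1.93. For these genes no NaCl array reached the lower anisomycin array. Egr1 and Rhob could not be tested against NaCl, since 1 NaCl array had an outlier mark for each, and the other array gave 1.82 and 1.05.

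Core histone genes formed part of the difference from NaCl. Hist2h2ac had 0.70 and 0.71 with anisomycin and -2.15 and -1.53 with NaCl, a difference of 2.54 ± 0.25 (adjusted p = 2.0e-05, limma). Hist1h2af (1.25), Hist3h2bb (1.22) and Hist1h2bk (1.13) differed in the same direction, and none of these 4 was called over the pool with anisomycin. The lower genes of the contrast were 1500002I01Rik (0.15 and 0.29 with anisomycin, 2.44 and 2.78 with NaCl), well above background on 1 anisomycin array only, and the myogenic factor gene Myf5 (-1.45 and -0.54 against 1.07 and 0.70), which was not well above background in Cy5 with anisomycin. Of the 72 higher genes 63 were tested against NaCl and 12 were higher, and of the 47 lower genes tested 0 differed, counts that the choice of the genes on the same anisomycin arrays favours in the direction of anisomycin. Genes higher with anisomycin than with both other stresses were 6, Jun, Btg2, Chka, Ier5l, Srrm4 and Gdap10 (1.59 and 1.36 with anisomycin), a gene first described as induced by gangliosides. Fitted on the 6 arrays of the 45 min stresses alone, the contrast with NaCl called 0 genes (692 at an unadjusted p under 0.05, limma) and that with TNFα 2, so these calls rest on the spread shared with the other groups.

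**Figure D5:**
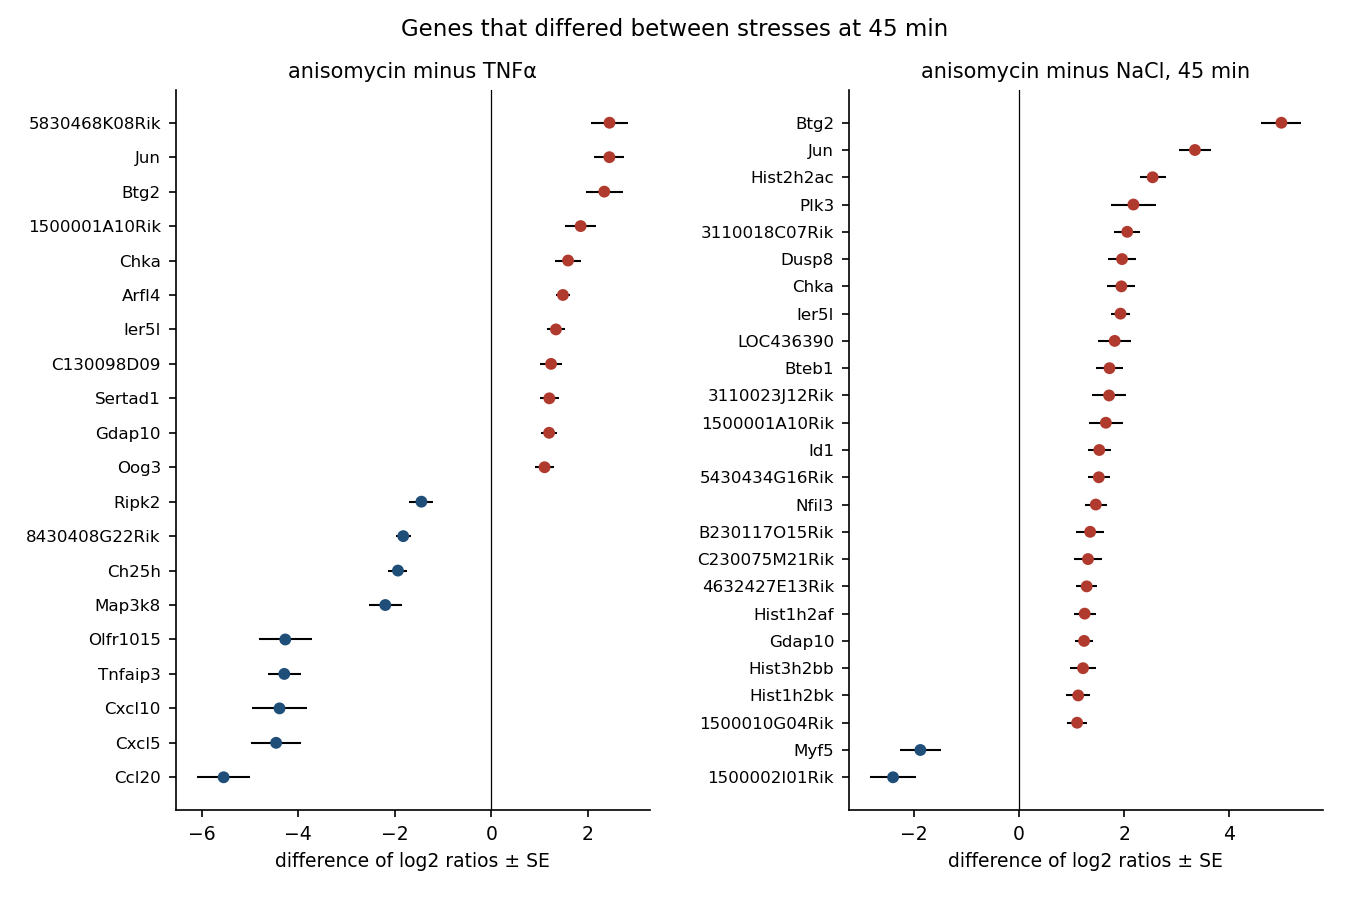
Difference of mean log2 ratios between anisomycin and TNFα (left) and between anisomycin and NaCl for 45 min (right) for the genes called different and reported here, with bars of 1 SE from limma, red for higher and blue for lower with anisomycin. Ccl20, Cxcl5, Cxcl10, Tnfaip3 and Olfr1015 lay beyond -4 on the left, and Btg2 and Jun beyond 3 on the right, where 2 genes were lower.

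The genes higher with anisomycin were also read with SB203580 and in cells without p38α. Their median was 0.82 with SB203580 and anisomycin (70 genes measured) and 0.79 in p38α-/- MEFs with anisomycin (72 genes), and 16 genes in each were at least 2-fold over the pool on both arrays, as were 0.225% and 0.446% of all genes measured. Jun read 5.21 and 4.78 with SB203580 and 4.66 and 5.00 in p38α-/- MEFs, Btg2 1.63 and 1.47 and then 2.09 and 2.44, and Spry4 -0.29 and -0.47 and then 0.27 and 0.22, all below both anisomycin arrays of wild type MEFs. Others did not read lower, among them Arrdc3 with SB203580 (2.99 and 2.71), Dusp8 in p38α-/- MEFs (2.13 and 2.68) and Klf2 in p38α-/- MEFs (2.18 and 1.85). Since the genes were chosen as high in wild type MEFs, lower medians were favoured by the choice and are given without a test.

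All 12 fibroblast marker genes on the array, collagens, Vim and Pdgfra among them, were well above background in Cy5 on both anisomycin arrays, and none of the 10 that could be tested was called. The markers of other cell types were also well above background, 6 of 6 for leukocytes, 2 of 2 for epithelium, 5 of 5 for endothelium, 4 of 4 for skeletal muscle and 2 of 2 for neurons, so that this mark does not separate cell types on these arrays. Of these markers 4 leukocyte, 2 epithelium, 4 endothelium, 2 skeletal muscle and 0 neuron genes could be tested, and none was called. Their part in the results was not tested. The summed Cy5 signal of the leukocyte markers was 6046 on array 1 and 11775 on array 2 and that of their pool signals 6446 and 11873, a difference between arrays that both dyes shared. For the fibroblast markers the Cy5 sums were 324268 and 364625, and for the skeletal muscle markers 100256 and 126191. Most of the latter came from Myod1 (92139 and 105546), the brightest of all these markers in Cy5 on both arrays. Myod1 was as bright in the pool (111074 and 106606) and could not be tested.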

How the data were processed

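Total RNA was measured on 30 arrays, 2 for each of 15 groups, with the treated cells in Cy5 and the pool in Cy3. The authors quantified the scanned arrays with Agilent Feature Extraction (8.1.1.1 in the file headers, 9.1 per the labels). The deposited log10 ratio is its dye-normalised Cy5 over Cy3 value, set to 0 where both signals were dim. The deposited intensity columns gave the signals and flags. The authors' series matrix was read as log2, a scale judged from its values, and used as an alternative only.

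Control spots and spots with an outlier flag were left out, ratios were turned to log2, and values were averaged over spots, then over the probes of each gene. Of the probes, 33453 had a gene name. Symbols from RefSeq were matched for 17672 of 21689 genes. A model of 15 group means was fitted to all 30 arrays with limma 3.58.1 (R 4.3.3), p-values were adjusted by Benjamini-Hochberg over all genes measured on the arrays compared, and the model was tested on simulated data. Contrasts called different also needed a 2-fold difference in each same-numbered pair of arrays. A bound was given where a probe was not well above background. Replicate numbers paired the arrays, since the difference between the 2 arrays correlated by more than 0.1 between every pair of wild type groups (55 of 55, lowest 0.13, highest 0.65).

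Named were the 15 highest and 10 lowest genes, the 8 most different in each direction from TNFα and NaCl, and called members of the lists. Members and lists were chosen with earlier results of these data known. Arrdc3, 2810405F15Rik, Gdap10, Rtn3, Sik1, Nfil3, Tiparp, Mt2, Tnfaip6, Olr1, Top1, Arl4d, other genes of the contrasts past the 8 and the genes with marked spots were named after their values were seen. Promoter motifs and figures used Python 3.11.15, pandas 2.3.3, numpy 2.4.6 and matplotlib 3.10.9. Results for 1 gene are not reported here. The number of arrays limits the precision.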

Additional observations from a re-analysis of the deposited data

How the results depend on the processing

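Genes changed against the pool numbered 141 (72 higher, 69 lower). They numbered 77 (50 and 27) after normexp background correction with loess, which put 64.9% of the calls on the higher side against 51.1%, 224 (87 and 137) with outlier-marked spots kept, where the higher share was 38.8%, 51 (30 and 21) at 2.5-fold and 230 (120 and 110) when only the mean had to be 2-fold. With 1 anisomycin array left out, the calls ran from 85 to 412, the higher ones from 52 to 209 and the lower ones from 33 to 203, the lowest without replicate 1 and the highest without replicate 2, where the spread of the lone array was taken from the other groups. With SB203580 alone in place of the pool, chosen after the data were seen, the counts were 23, 23 higher and 0 lower. The series matrix, the brightest probe, probes well above background, the wild type arrays alone and the 6 arrays of 45 min stresses moved these counts by less than 1.5 times. The replicate block gave 151 (78 and 73), as did the scan day as a term, and with the pairing all 72 higher and 69 lower genes kept their adjusted p.

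Against TNFα (11 higher, 10 lower), 7 were higher under normexp, 37 differed with the series matrix (17 and 20), 36 with marked spots kept (17 and 19), 2 in the 6-array fit (0 and 2) and 6 were higher at 2.5-fold. The replicate block gave 29 (16 and 13). Leaving out an anisomycin array gave 17 to 20 differences, 9 to 11 higher and 8 to 9 lower, and leaving out a TNFα array, added after the data were seen, 14 to 24, with 7 to 9 higher and 7 to 15 lower.

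Against NaCl (23 higher, 2 lower), the series matrix gave 40 (40 and 0), marked spots kept 35 higher, the 6-array fit 0 (0 and 0) and 2.5-fold 16 (15 and 1). The lower count was 0 under normexp and for probes well above background and 1 with the brightest probe, the wild type arrays alone or the scan day as a term, and the replicate block gave 32 (30 and 2). Leaving out an anisomycin array gave 14 to 24, with 14 to 19 higher and 0 to 5 lower. Leaving out a NaCl array, also added later, gave 23 to 28, with 19 higher in each case and 4 to 9 lower.

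Among the 141 called genes the sign turned only for Rtn3 with the series matrix (-0.036). Without replicate 1 the adjusted p was kept by 34 of the 72 higher and 18 of the 69 lower genes, and without replicate 2 by 60 and 50. The causes were not tested.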
